A study of Mus musculus with 2 samples.

Results

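Open chromatin was described at 10 genes of the receptor-proximal T cell receptor (TCR) machinery in regulatory T (Treg) cells with and without transketolase. The genes were the CD3 chains Cd3e, Cd3d, Cd3g and Cd247, the coreceptor Cd4, the kinases Lck, Fyn and Zap70, and the adaptors Lat and Lcp2. They were found by name, through the peaks that the authors had assigned to these gene symbols in 2 lists of ATAC-seq peaks. This gave 35 of the 34440 peaks in the wild-type (WT) list and 24 of the 19680 peaks in the knockout (cKO) list, out of 19459 gene symbols that occur in the lists. Peaks were assigned to 9 of the 10 genes in each list, Cd3g being the exception.

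The TCR itself recognises antigen but carries no signalling motif in its short tails. The CD3 gamma, delta, epsilon and zeta chains (Cd3g, Cd3d, Cd3e and Cd247) bring immunoreceptor tyrosine-based activation motifs, which Lck, carried on the tail of CD4, phosphorylates with help from Fyn. Zap70 then binds the phosphorylated motifs and phosphorylates the scaffolds LAT and SLP-76 (Lcp2), from which the calcium and Ras branches start. Treg cells depend on this pathway for their selection in the thymus and for their suppressive function in the periphery.

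ATAC-seq uses the Tn5 transposase to cut and tag accessible DNA. Each library was made from 50000 sorted CD4+CD25+YFP+ cells. Cells came from the spleens and lymph nodes of C57BL/6 females 7 weeks old. WT cells were taken from Foxp3cre/+ mice with wild-type Tkt, and cKO cells from Foxp3cre/+ TKTfl/fl mice, in which Tkt, the gene of transketolase in the pentose phosphate pathway, is deleted in Treg cells. Both groups carried the Cre allele at Foxp3, and the labels call the mice chimeric. As background, Foxp3 is X-linked, so females with a single Cre allele also hold Treg cells that do not express Cre. No treatment was given, and the number of mice per library is not stated in the labels. There was 1 library per genotype, so no difference between the lists could be set against a spread between replicates and no test was made. A peak of either list was called shared when a peak of the other list overlapped it by at least 1 bp.

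Depth was unknown, as the lists give no read totals, and a region without a peak is one where no peak was called, not one shown to be closed. The authors' peak score has no stated definition or scale, so each score was read only within its own list. It is given below with its percentile there, with the strongest peaks near 100. Percentiles in lists of different length do not measure a change between genotypes. Tkt itself had a promoter peak in both lists, shared, with scores of 154 in WT and 28.5 in cKO, which does not check the deletion. Among Treg markers, Foxp3, Il2ra, Ctla4 and Ikzf2 had 19 WT and 14 cKO peaks in all, of which 15 WT peaks were shared, while Tnfrsf18 had no assigned peak. Zbtb7b, the factor of the CD4 lineage, had 2 WT peaks and none in cKO. Of the B cell markers, Cd79a had 1 WT peak, which was shared, and Cd79b had 4 WT peaks and none in cKO. Over all WT peaks 56.1% were shared, so WT peaks without a cKO partner are common in the whole list. Of 5 myeloid markers 2 had a WT peak and 2 a cKO peak, of 3 CD8 markers 1 and 2, of 3 NK markers 2 and 2, and of 3 erythroid markers 1 and 1. Cd8a, Ncr1, Ms4a1, Pax5, Csf1r and Itgam had none in either list, and the part of other cells in the values below was not tested.

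The start regions of these genes show where the promoter peaks fall. RefSeq start windows (250 bases before to 50 after a gene's start, GRCm38.p6, the assembly of mm10) were found for 9 of the 10 genes, in 12 windows. A WT peak overlapped 10 of the 12, against 37.1% of all 32851 windows, and a cKO peak overlapped 9 of these 10, against 85.3% of the 12200 windows that lie in a WT peak. The windows outside any peak were downstream starts of Zap70, and the window in a WT peak alone was that of Lcp2.

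The windows shown here are those on which the descriptions of the CD3 cluster, Lck and Lcp2 turn. They are printed 5′ to 3′ on the strand of the gene, with matches to the motifs named after them in capitals. The Cd3g window (chr9:44980382-44980681, minus strand) and the Cd3d window (chr9:44981536-44981835, plus strand) belong to starts that face away from each other, 1338 bp apart. Lck has an upstream start (chr4:129573592-129573891, minus strand) and a downstream start (chr4:129558323-129558622, minus strand). The Lcp2 window is chr11:34046678-34046977 on the plus strand.
Cd3g: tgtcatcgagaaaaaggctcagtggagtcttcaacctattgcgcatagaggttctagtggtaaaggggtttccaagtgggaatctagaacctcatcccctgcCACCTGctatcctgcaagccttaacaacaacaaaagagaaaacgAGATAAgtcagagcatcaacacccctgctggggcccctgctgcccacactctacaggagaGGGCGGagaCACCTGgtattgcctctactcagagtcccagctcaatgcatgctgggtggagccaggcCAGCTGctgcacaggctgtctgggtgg
Cd3d: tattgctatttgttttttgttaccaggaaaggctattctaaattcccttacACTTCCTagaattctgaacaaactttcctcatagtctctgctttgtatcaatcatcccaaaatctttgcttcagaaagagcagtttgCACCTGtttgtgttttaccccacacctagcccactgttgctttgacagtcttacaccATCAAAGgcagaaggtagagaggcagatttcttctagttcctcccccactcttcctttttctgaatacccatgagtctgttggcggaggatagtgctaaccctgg
Lck upstream: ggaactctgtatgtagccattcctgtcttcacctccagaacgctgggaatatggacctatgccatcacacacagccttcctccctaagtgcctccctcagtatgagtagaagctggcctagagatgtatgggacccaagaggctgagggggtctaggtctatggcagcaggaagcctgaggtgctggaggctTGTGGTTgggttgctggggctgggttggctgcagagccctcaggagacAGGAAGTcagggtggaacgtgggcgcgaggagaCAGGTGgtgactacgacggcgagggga
Lck downstream: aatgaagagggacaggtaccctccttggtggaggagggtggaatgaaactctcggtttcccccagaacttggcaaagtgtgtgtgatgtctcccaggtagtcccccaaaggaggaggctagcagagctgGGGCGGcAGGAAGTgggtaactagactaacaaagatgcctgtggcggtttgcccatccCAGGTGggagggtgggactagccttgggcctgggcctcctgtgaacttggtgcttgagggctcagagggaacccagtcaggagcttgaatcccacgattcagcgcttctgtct
Lcp2: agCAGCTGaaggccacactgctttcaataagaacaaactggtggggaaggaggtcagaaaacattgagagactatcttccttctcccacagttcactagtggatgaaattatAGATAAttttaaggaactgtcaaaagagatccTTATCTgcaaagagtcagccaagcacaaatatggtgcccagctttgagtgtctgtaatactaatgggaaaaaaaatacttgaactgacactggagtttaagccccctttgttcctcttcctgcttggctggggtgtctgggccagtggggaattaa

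Motifs were searched as exact letters on both strands, and no match overlapped another. The ETS letters AGGAAGT were found in 5 of the 12 windows, those of Cd3e, Cd3d, Cd247 and both Lck starts, against 9.35% of all windows. The E-box letters CACCTG were found in 8 of the 12 (Cd3e, Cd3d, Cd3g, Cd247, both Lck starts and 2 Zap70 starts), against 20.2% of all windows. The other E-box, CAGCTG, stood in the Cd3g and Lcp2 windows (16.3% of all), and the RUNX letters TGTGGTT in the upstream Lck window alone among the 12 (5.27% of all). The TCF letters CTTTGAT were in the Cd3d and Fyn windows (3.73% of all), GATA letters AGATAA in those of Cd3g and Lcp2 (11.2%), and the cyclic AMP response element TGACGTCA in that of Zap70 (1.79%). The SP/KLF letters GGGCGG were in 3 windows, of Cd3g, Fyn and the downstream Lck start, against 35.7% of all. No window of these genes matched the second ETS form CCGGAAG, the TATA box TATAAA, the AP-1 letters TGANTCA or the forkhead letters TGTTTAC, which 8.86%, 13.6%, 7.81% and 3.65% of all windows hold. These are matches of letters and not binding sites.

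Most peaks of these genes were called in both libraries. Of 35 WT peaks, 24 were shared (68.6%, Wilson 95% interval 52.0 to 81.4), against a background of 56.1% over all WT peaks. Of the 24 cKO peaks, 23 were shared (95.8%, 79.8 to 99.3), against 97.6% over all cKO peaks. The background share lies inside the interval in both directions. Intervals cover counting error only and treat each peak as independent. Of the 35 WT peaks, 13 were assigned to Fyn and 7 to Lcp2. Splitting the WT list into 10 score bins of equal number, where bin 10 holds the highest scores, all WT peaks in the bins of the 35 were shared at 65.9% on average. Scores and widths of the 35 stood above those of the list, with a median score of 45.8 against 28.1 and a median width of 1294 bp against 977 bp. In the cKO list the median score of the 24 was 15.9 against 16.6 for all.

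Promoter peaks, which the files class as within 3 kb of a transcription start site (TSS), were shared more often than the others by count. Of 14 WT promoter peaks 13 were shared (92.9%, 68.5 to 98.7), against 74.3% of all WT promoter peaks, and of 21 others 11 were shared (52.4%, 32.4 to 71.7), against 41.4%. All 9 genes with an assigned promoter peak shared at least 1 of them, against 78.1% of genes with a WT promoter peak. The strongest WT peak was shared in 9 of 9 genes, against 69.8% of all genes with a WT peak. These 9 peaks lie in score bins 8 to 10, where between 94.7% and 99.5% of all WT peaks were shared. Every WT peak was shared in 4 of the 9 genes (Cd3d, Cd247, Zap70 and Lat), against 46.8% of all genes with a WT peak. These 4 are among the 5 genes with 1 or 2 WT peaks, where the background is 54.7%. Of the 4 genes with 3 or more WT peaks (Cd3e, Lck, Fyn and Lcp2), all had at least 1 shared peak, against 91.5%, and 0 had every peak shared, against 9.52%.

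**Figure D1:**
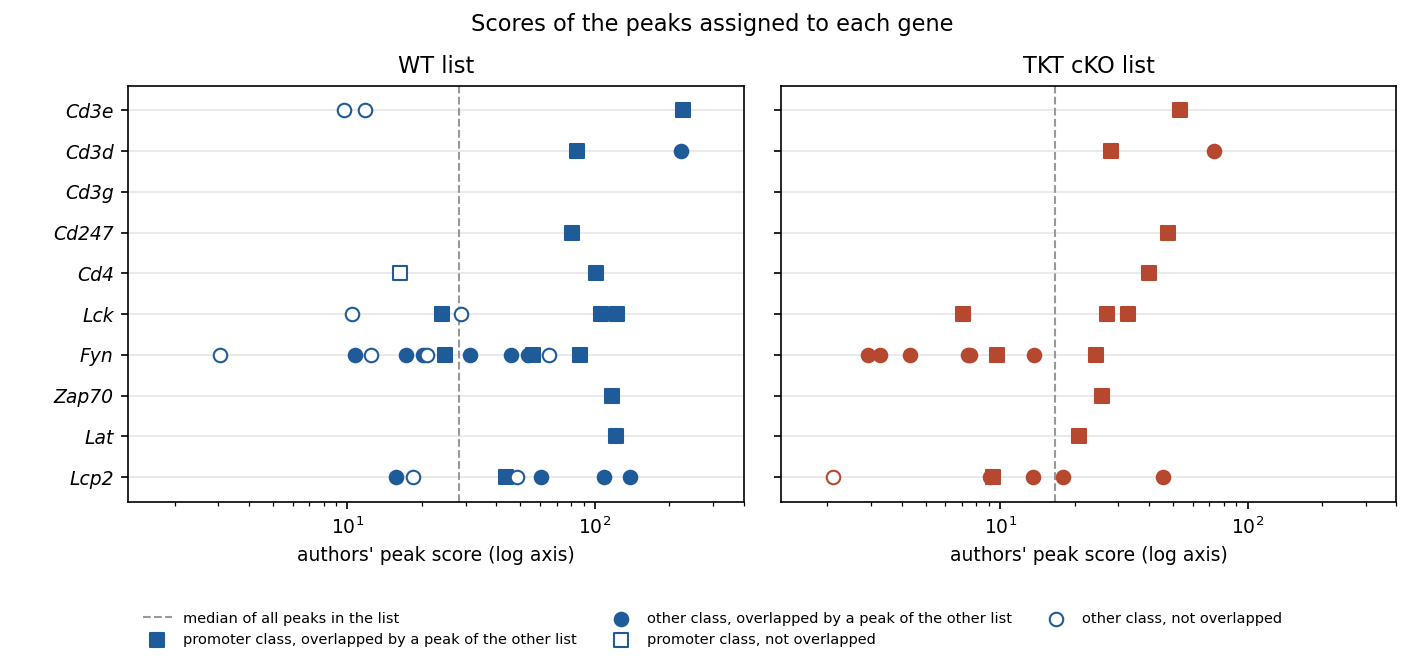
Authors' peak score (log axis) of every peak assigned to the 10 genes, in the WT list (left) and the cKO list (right), 1 point per peak. Squares are promoter peaks, circles others, filled points are shared and open points are not, and the dashed line is the median of the list (28.1 and 16.6). The 11 open points in the WT list reach no higher than 65.5, and the strongest peak of each gene is filled.

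Among the CD3 chains, the promoters and the 3′ end of Cd3d were open in both libraries. Cd3e, the chain that pairs with both gamma and delta, had its promoter peak at chr9:45008452-45010734 in WT, with a score of 228 (percentile 95.3), and at chr9:45008484-45010726 in cKO, with a score of 53.5 (percentile 87.3). The cKO peak covered 98.2% of the WT peak. Cd3e also had WT peaks 5420 and 13298 bp upstream of its TSS, with scores of 11.8 and 9.66, and neither had a cKO partner. They lie in score bin 3, where 21.1% of all WT peaks were shared.

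Cd3d had a peak over its promoter and a stronger peak at its 3′ end. The promoter peak was chr9:44979586-44982230 in WT (score 84.2, percentile 75.2) and chr9:44979601-44981826 in cKO (score 28.0, percentile 67.1). The peak classed as 3′ UTR was chr9:44985725-44987492 in WT (score 223) and chr9:44985921-44987272 in cKO (score 72.9, percentile 94.1). This 3′ peak was the strongest of all 24 in the cKO list and ranked second among the 35 in WT, after the Cd3e promoter. A T cell enhancer is known downstream of Cd3d, and its position was not compared with the peak here. Cd3g had no peak of its own in either list. The promoter peak assigned to Cd3d spans the Cd3g start as well: all 300 bases of the Cd3g window printed above lie in it in both lists, and 300 bases (WT) and 291 bases (cKO) of the Cd3d window. Each peak carries a single gene name, so the Cd3g start is open under the name of Cd3d. The flanking peaks of the cluster were named Ube4a (shared) and Gm48719 (2 WT peaks, not shared).

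Cd247 encodes the zeta chain, which carries the most activation motifs of the complex. Its assigned peak, at chr1:165788575-165791172 in WT (score 80.9, percentile 74.2) and chr1:165788590-165791010 in cKO (score 47.8, percentile 84.1), was classed as a promoter peak. Inside the RefSeq gene body the WT list held 11 further peaks that the authors had assigned to the predicted genes Gm16565, Gm23402, Gm32999 and Gm37469. Of these 11, 9 were shared, against 56.1% of all WT peaks. The strongest, with the Gm32999 name, scored 158 in WT (percentile 88.2, chr1:165843861-165845651) and 54.1 in cKO (percentile 87.5). The next, near the 5′ end of the RefSeq gene body and named Gm16565, scored 119 in WT and 39.4 in cKO. The WT peaks without a partner scored 8.60 and 10.4.

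Cd4, the coreceptor by which the cells were sorted, had a peak over its TSS in WT alone. This peak, at chr6:124887533-124888646, scored 16.3 (percentile 35.5) and had no cKO partner, the nearest cKO peak lying 1081 bp away. In its score bin 32.0% of all WT peaks were shared. The second Cd4 peak, 1624 bp from the TSS, was shared, with scores of 101 in WT (percentile 78.9, chr6:124884922-124886597) and 40.0 in cKO (percentile 78.9, chr6:124884924-124886451). Cd4 is known to carry regulatory elements in its first intron as well as at its promoter. The cKO cells too were sorted as CD4+. Peaks within 10 kb of Cd4 that carry other names, Gpr162 and P3h3, were shared.

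Lck, the Src-family kinase that phosphorylates the CD3 chains, was open at both of its starts in both libraries. The downstream start had a peak at chr4:129558053-129559156 in WT (score 106, percentile 79.8) and chr4:129557984-129559142 in cKO (score 32.8, percentile 72.4), and all 300 bases of its window lie in both. At the upstream start the WT peak was chr4:129571828-129573905 (score 24.1, percentile 45.9) and the cKO peak chr4:129573043-129573736 (score 7.06, percentile 23.1). The cKO peak covered 33.4% of that WT peak, the lowest share among the 24 shared peaks, and 145 of the 300 bases of the printed window. Just upstream, the WT peak at chr4:129574477-129575764 was the strongest of the gene, with a score of 123 (percentile 83.0), and its cKO partner at chr4:129575047-129575758 scored 27.1 (percentile 66.0). The WT peaks in intron 1, at chr4:129564796-129565539 and chr4:129569966-129570465, scored 10.4 and 28.8 and had no cKO partner. Other names inside or within 10 kb of Lck were Hdac1, with a shared promoter peak and an unshared WT peak, and Mir8119 and Fam167b, each with an unshared WT peak. Lck is known to be transcribed from a distal promoter in mature T cells and from a proximal one in thymocytes.

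Fyn, the second Src-family kinase of the TCR, had the most peaks, 13 in WT and 8 in cKO, over its promoter and introns 1, 2, 3 and 5. Of the 13, 9 were shared, against 56.1% of all WT peaks. The start of the gene had adjoining WT peaks at chr10:39368928-39370002 (score 86.6, percentile 75.8) and chr10:39370389-39371816 (score 56.3, percentile 66.5), which a single cKO peak spanned (chr10:39368990-39371789, score 24.3, percentile 62.3). The 9 shared WT peaks thus overlapped 8 cKO peaks. A promoter peak at an internal start scored 24.9 in WT and 9.69 in cKO.

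All 6 shared intron peaks of Fyn lay under the median score of the cKO list. In intron 3, the WT peaks with scores of 53.4, 20.2, 17.3 and 10.7 had cKO partners with scores of 7.58, 13.7, 3.26 and 2.91. Within the WT list the peak at chr10:39478812-39480929 led these 4, at percentile 65.3. Within the cKO list the partner of the peak at chr10:39486506-39489288 led, at percentile 43.9. No replicate is at hand to set this order against. The intron 1 peak at chr10:39385491-39387367 scored 31.2 in WT and 4.32 in cKO, and the intron 5 peak at chr10:39519731-39520779 scored 45.8 and 7.42.

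Of the peaks assigned to the 10 genes, the strongest WT peak without a cKO partner lay in Fyn intron 1, 6621 bp from the nearest annotated TSS, at chr10:39376424-39377482. It scored 65.5 (percentile 69.8) and was 1059 bp wide, and the nearest cKO peak ended 4634 bp away. In its score bin 83.7% of all WT peaks were shared. The other unshared Fyn peaks scored 3.07, 12.4 and 20.9. As at Cd247, the gene body held peaks under other names: 7 WT peaks in Fyn had been assigned to Gm6963 or Gm16364, of which 3 were shared. The strongest of those 7, in intron 2 at chr10:39402186-39403287, scored 79.6 (percentile 73.9) and had no cKO partner. It stood in score bin 8, where 94.7% of all WT peaks were shared. Over the bodies of all 10 genes, 13 of 23 WT peaks named for genes outside the 10 were shared, against 56.1% of all WT peaks.

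Zap70, the kinase that docks on phosphorylated CD3, and Lat, the membrane scaffold that it phosphorylates, had a single peak each, at the promoter, and both were shared. The Zap70 peak scored 117 in WT (percentile 81.9, chr1:36760586-36762465) and 25.7 in cKO (percentile 64.2, chr1:36760938-36762348). The Lat peak scored 122 in WT (percentile 82.9, chr7:126367750-126369974) and 20.9 in cKO (percentile 57.5, chr7:126368703-126369908). The cKO peaks covered 75.1% and 54.2% of their WT partners and all 300 bases of the Lat window and of the first Zap70 window. A further peak in the Zap70 gene body, named Gm18828, was shared with scores of 69.6 and 18.1, and a WT peak of that name in the flank, with a score of 29.3, was not. Near Lat, the peak at the promoter of Spns1 was shared, with scores of 281 and 102, as was 1 of 2 WT peaks named Gm30928.

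Lcp2 encodes SLP-76, the cytosolic adaptor that assembles on LAT. It had 6 cKO peaks and shared 5 of its 7 WT peaks, against 56.1% of all WT peaks. Its strongest peak in both lists was not at the promoter but 35796 bp upstream, at chr11:34009520-34011124 in WT (score 139, percentile 85.7) and chr11:34009639-34011068 in cKO (score 45.4, percentile 82.7). A neighbouring shared peak 37865 bp upstream scored 60.7 in WT and 18.0 in cKO, and another 15210 bp upstream scored 15.7 and 9.07. The intron 3 peak at chr11:34063444-34064842 scored 109 in WT (percentile 80.2), and its cKO partner, at chr11:34063600-34065169, scored 13.5 (percentile 43.5).

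At the Lcp2 start the called peaks had different extents. The WT promoter peak (chr11:34046534-34049645, 3112 bp wide, score 43.7) covered all 300 bases of the start window printed above. The cKO peak (chr11:34048108-34049459, 1352 bp wide, score 9.38) overlapped it downstream and covered 0 of these bases, so the peak is shared while the start itself lies in a WT peak alone. The WT peaks 9652 and 3465 bp upstream scored 48.5 and 18.4 and had no cKO partner. The first was 1108 bp wide and stood in score bin 7, where 83.7% were shared. Lcp2 also held the only one of the 24 cKO peaks without a WT partner, in intron 3 at chr11:34058503-34059103, with a score of 2.12 at percentile 0.955 of the cKO list. The 2 WT peaks in its body that are named 4930469K13Rik were not shared, nor was another of that name in the flank. Those in the body lie in score bin 3, where 21.1% of all WT peaks were shared. The flank peak lies in bin 6, where 63.3% were.

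**Figure D2:**
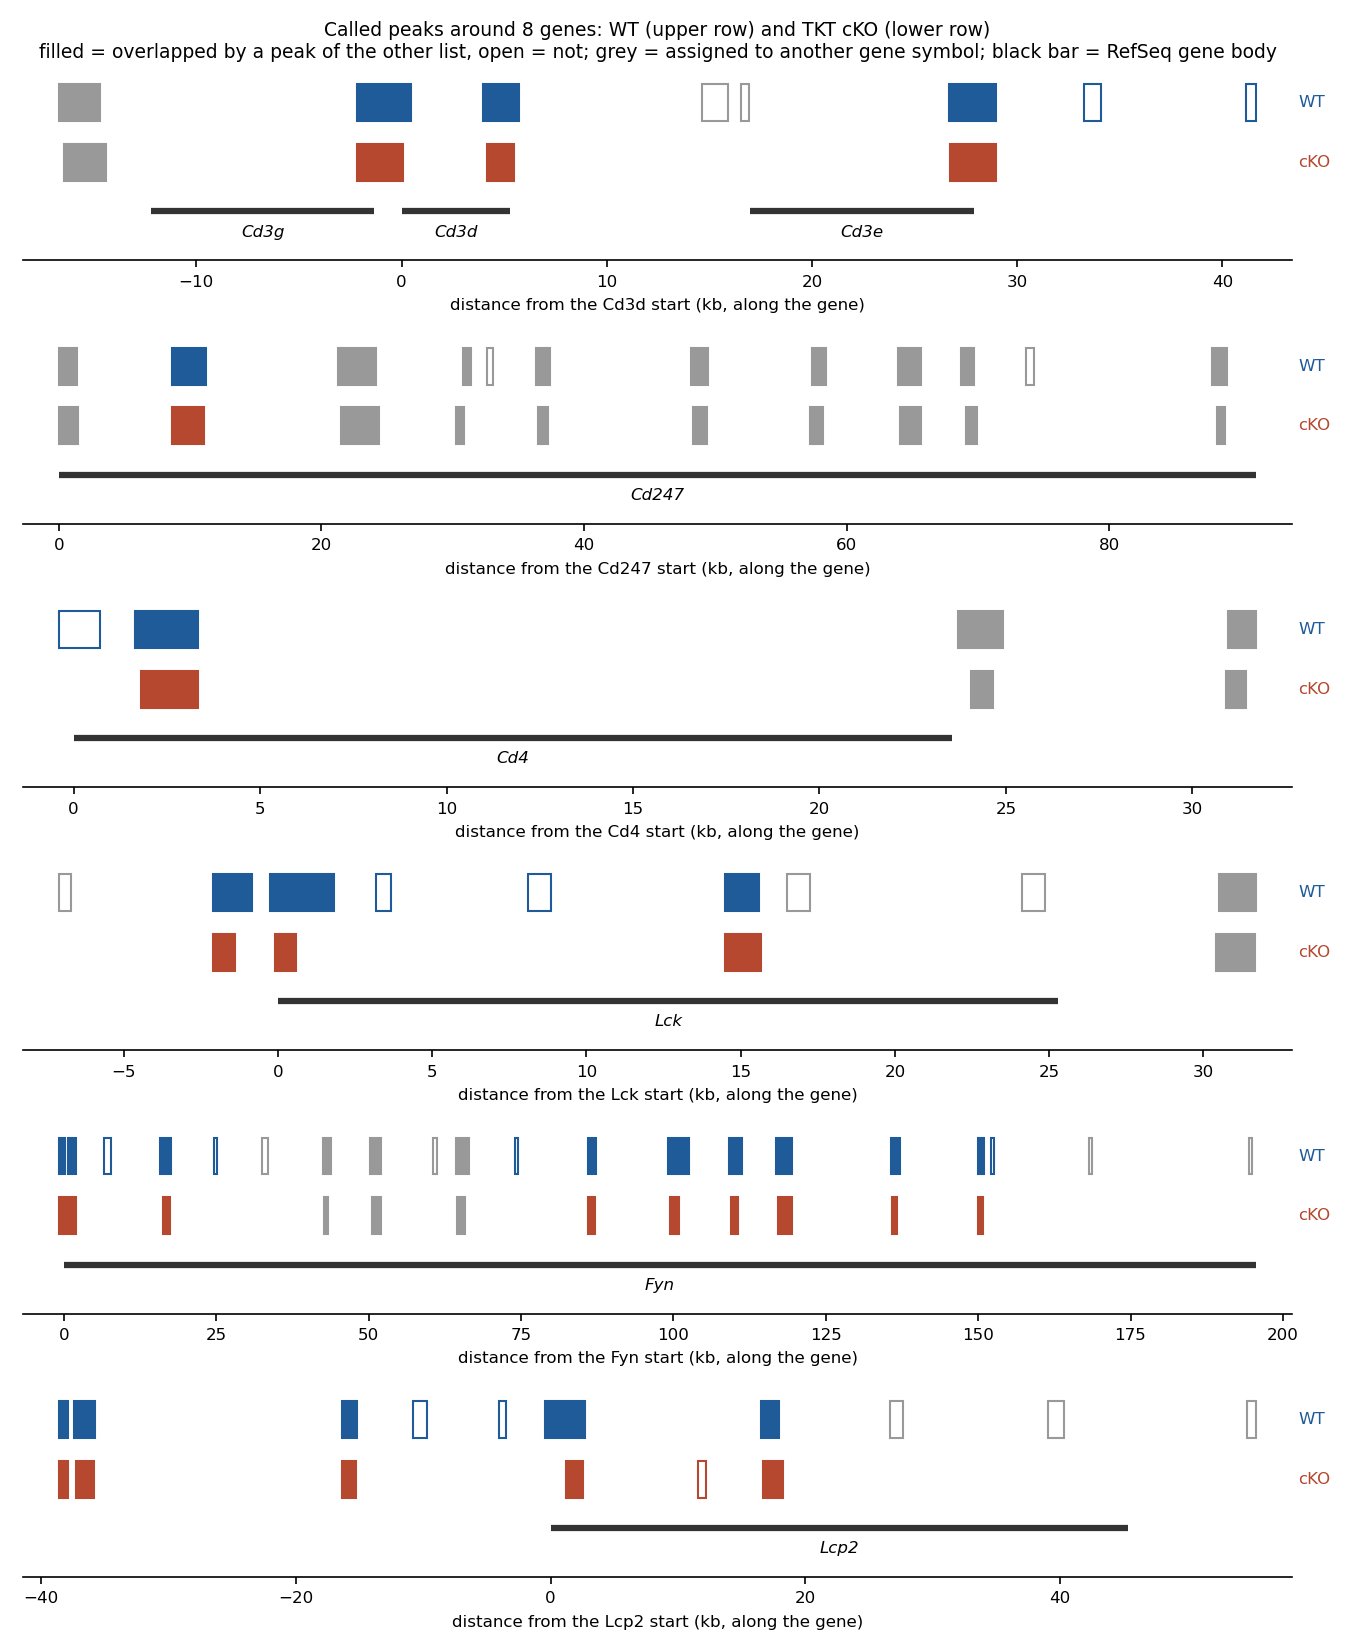
Called peaks around 8 of the genes, WT in the upper row and cKO in the lower row of each panel, by distance in kb from the start of the gene named under the axis. Filled boxes are shared, open boxes are not, grey boxes carry another gene symbol and black bars are RefSeq gene bodies. The Cd3d promoter peak spans the space between the Cd3g and Cd3d starts, Cd247 holds 11 grey WT boxes, and the cKO box at the Lcp2 start begins downstream of it.

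The 11 WT peaks without a partner were weaker and narrower than the 24 shared ones. Their scores ran from 3.07 to 65.5 with a median of 16.3, against 10.7 to 228 with a median of 70.8, so the ranges overlap. Their widths ran from 477 to 1114 bp with a median of 582 bp, against 711 to 3577 bp with a median of 1722 bp. Narrow peaks were shared less often in the whole list too. The share over all WT peaks was 56.1%, and 60.9% without those under 465 bp. In score bins 7 to 10 of the WT list 17 of 19 peaks of the 10 genes were shared, against 94.2% of all WT peaks there. The exceptions were those in Fyn intron 1 and 9652 bp upstream of Lcp2. In bins 1 to 6, 7 of 16 were shared, against 30.7% of all WT peaks there. The cKO peak covered between 33.4% and 98.7% of a shared WT peak, with a median of 82.7% against 81.0% over all shared WT peaks. Of the 23 shared cKO peaks, 17 lay wholly inside their WT partner.

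**Figure D3:**
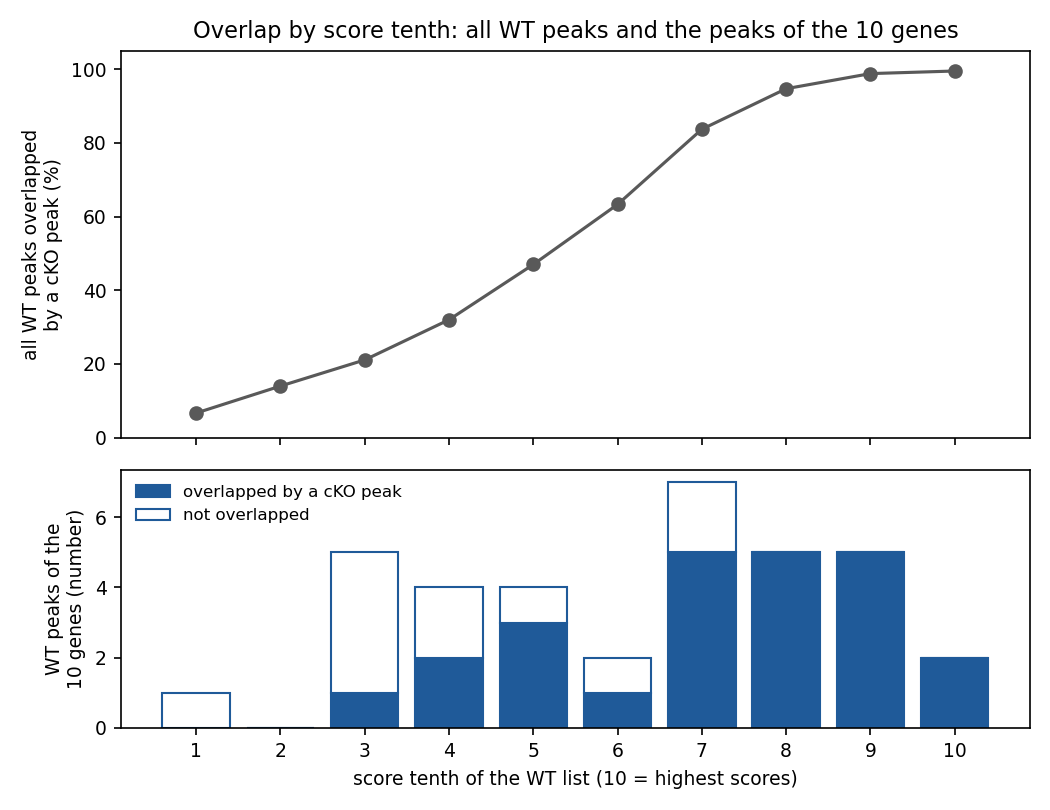
Upper panel, percent of all WT peaks overlapped by a cKO peak in each of 10 score bins of equal number (bin 10 holds the highest). Lower panel, number of WT peaks of the 10 genes in each bin, filled where shared and open where not. The share over all peaks rises from 6.68% to 99.5%, and all 12 peaks assigned to the 10 genes in bins 8 to 10 are filled. Peaks in the gene bodies under other names are not drawn.

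The other genes of the proximal pathway were described from a list of 36 that holds costimulators, kinases, adaptors and negative regulators. Of the 36, 35 had a peak in each list, and Ptpn6 had none in either. They shared 100 of 165 WT peaks (60.6%, 53.0 to 67.7), against the 56.1% of all WT peaks. Of their cKO peaks 100 of 103 were shared (97.1%), against 97.6% of all cKO peaks. Promoter peaks were shared at 40 of 53 (75.5%, 62.4 to 85.1, against 74.3% of all) and others at 60 of 112 (53.6%, 44.4 to 62.5, against 41.4%). For the others the background lies below the interval, which covers counting error only and treats peaks of the same gene as independent. Every WT peak was shared in 8 of 35 genes, against 46.8% of all genes with a WT peak. That background depends on the number of peaks, and most of the 35 genes have 3 or more. Nck1, Cbl, Cd5, Map4k1 and Sit1 have 1 or 2 WT peaks, where the background is 54.7%. Grb2, Sla and Cd2 have 3 or more, where it is 9.52%. Each of the 35 had at least 1 shared WT peak, against 72.0% of all genes with a WT peak and 91.5% of genes with 3 or more. Fyb, the ADAP adaptor that links SLP-76 to integrins, shared 7 of 11 WT peaks, as did Pik3r1, the regulatory subunit of PI3-kinase. Grap2, which encodes the GADS bridge between LAT and SLP-76, shared 7 of 9. Cblb, a ubiquitin ligase that damps TCR signals, Themis, a T cell lineage adaptor, and Ubash3b, a phosphatase of the pathway, each shared 4 of 8.

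The strongest unshared WT peaks of that list lay at a kinase and an exchange factor. Csk, the kinase that inhibits Lck and Fyn through their tails, shared 3 of its 6 WT peaks, including 1 of 3 promoter peaks. Over the whole list 56.1% of WT peaks and 74.3% of WT promoter peaks were shared. An unshared WT promoter peak of Csk scored 80.1 (percentile 74.0, chr9:57633451-57634279, 829 bp wide). It lay in score bin 8, where 94.7% of all WT peaks were shared. At another position lay a cKO promoter peak without a WT partner, with a score of 10.5 (percentile 35.5, chr9:57645179-57645896). Sos1, which activates Ras downstream of LAT, shared 0 of its 3 WT promoter peaks, the strongest scoring 49.8, and 2 peaks of other classes were shared. The 3 promoter peaks of Sos1 lie in score bins 6 and 7, where 63.3% and 83.7% of all WT peaks were shared. Unshared peaks followed in intron 1 of Cd28, the main costimulatory receptor (score 36.8), in intron 1 of Grap2 (32.9) and 7479 bp upstream of Sh2d2a (28.4). Besides Csk, unshared cKO peaks were assigned to Vav1 and Grap2, with scores of 3.61 and 3.09.

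**Figure D4:**
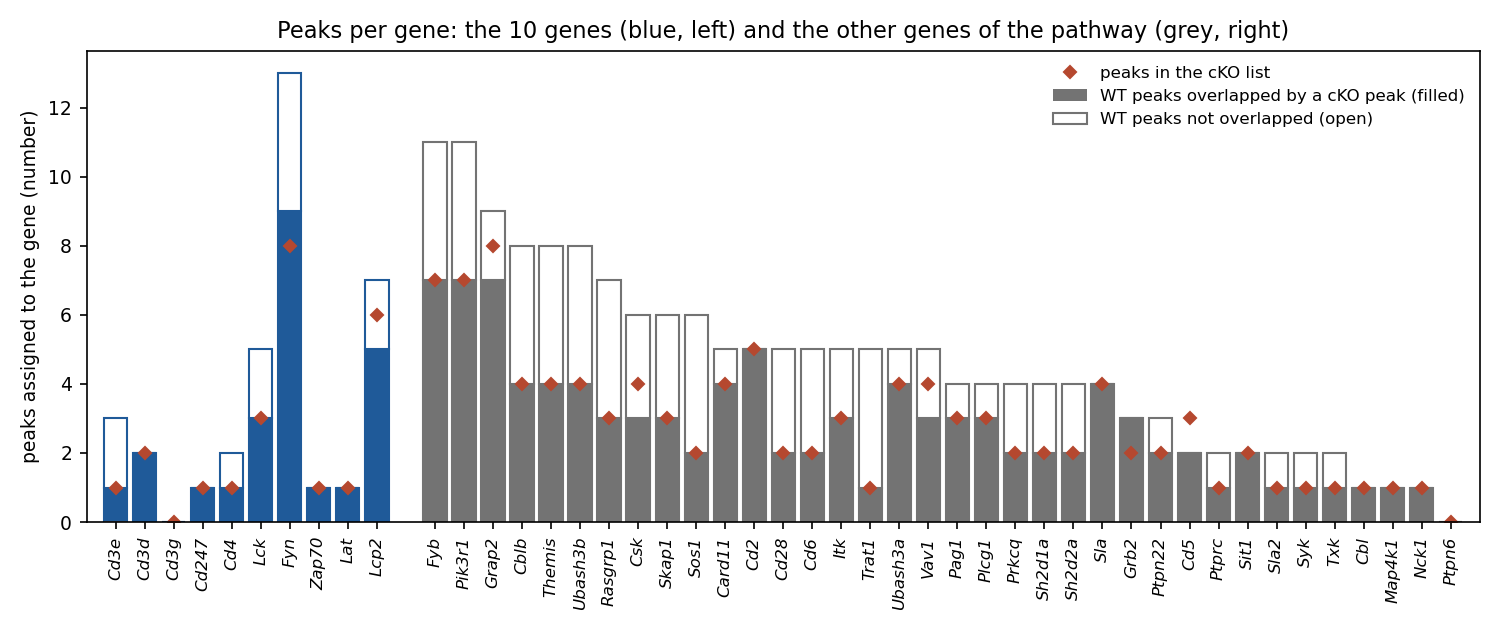
Number of WT peaks assigned to each of the 10 genes (blue) and the 36 other pathway genes (grey), split into shared (filled) and not shared (open), with the number of cKO peaks as diamonds. Fyn leads with 13 WT peaks, and Cd3g and Ptpn6 have no assigned peak in either list.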

How the data were processed

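ATAC-seq was made from 2 samples, 1 library per genotype. The submitters' processing notes name BWA, MACS2, Trimmomatic and FastQC and the build mm10, without roles. Their versions and settings, any removal of duplicate or mitochondrial reads, any Tn5 shift and the tool that assigned genes were not given in the sources used here. There is 1 deposited peak list per library. The peak score was deposited by the authors without a definition and was used only within a list, to rank and filter peaks. Each peak carries 1 gene name, chosen by the authors.

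Overlaps, shares and Wilson intervals were computed with Python 3.11.15, pandas 2.3.3 and scipy 1.17.1, and figures were drawn with matplotlib 3.10.9. The overlap code was tested on simulated data and compared with bedtools 2.31.1, from which it differed at 0 of 34440 WT and 0 of 19680 cKO peaks. Score bins hold equal numbers of WT peaks. Read depth is unknown. The genes, lists and rules were chosen with earlier results of these data known. All 10 genes were described, with the names under which the authors listed other peaks in or within 10 kb of them. Of the pathway list, the rule named up to 5 genes with the most WT peaks (6 with ties), the 5 with the strongest unshared WT peak, any with a WT but no cKO peak (0 genes) and any with an unshared cKO peak. Genes with every WT peak shared, and Ptpn6, were named after their values were seen. Alternatives varied the overlap, score threshold, list length, peak width and gene assignment. One cell type marker is not reported here.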

Additional observations from a re-analysis of the deposited data

How the results depend on the processing

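No paired analysis was possible because each genotype has 1 library, and no library could be left out. Of 30 recomputed values, 24 lay within the interval of the main share or within 1.5 times the main count. With the WT list reduced to its strongest 19680 peaks, 20 of 23 WT peaks of the 10 genes were shared (87.0%, against 83.0% of all WT peaks in that setting), 79.2% of their cKO peaks (83.0% of all cKO peaks) and 84.0% of the WT peaks of the pathway list. The 3 left without a partner were in Fyn intron 1, in Lck intron 1 and 9652 bp upstream of Lcp2. Above the median score of each list, 100% of the cKO peaks of the 10 genes were shared, 12 of 12, against 99.4% of all cKO peaks, and 61.9% of their WT peaks, 13 of 21, against 57.0%. Without WT peaks under 465 bp, the width of the narrowest cKO peak, the pathway list shared 68.1% (60.9% of all WT peaks), and the peaks of the 10 genes were unaffected because none is that narrow. With peaks taken by position, within 10 kb of the RefSeq gene, the 10 genes shared 40 of 66 WT peaks (60.6%), against 56.1% of all WT peaks. The number of genes with every WT peak shared fell from 4 to 1, which was Cd3g. By position each gene holds 3 or more WT peaks. Among all genes with 3 or more assigned WT peaks, 9.52% had every one shared, against 54.7% of those with 1 or 2. That setting takes in peaks of neighbouring genes. Read depth is unknown and limits every count, and a missing peak says only that none was called.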
